A study of Mus musculus with 6 samples.

Results

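Each whole cell of this series carries 2 deposited cell cycle scores, an S score and a G2M score, and what follows describes these scores across rounds of treatment, clusters, pseudotime, sequencing depth and lineages. All cells in which both scores are filled were taken: 33158 whole cells of the 51785 cells and nuclei in the authors' table. The scores are empty in the 18627 nuclei. For the lineages, a barcode was described when it was called in at least 20 whole cells of at least 2 conditions. That rule kept 26 of 560 called barcodes.

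The cells are PB3, a cell line from a mouse mammary tumour, grown in DMEM/F12 medium and marked with lentiviral barcodes, synthetic tags that are inserted into the genome and inherited by daughter cells. Run 1 gave an untreated library (UNT, 11061 cells) and a library after 4 rounds of eribulin (ERI4, 9331 cells), each round being 500 nM for 72 h followed by 48 h of recovery. Run 2 gave 2 libraries, in each of which 3 conditions were tagged with hashtag oligos and pooled: cells after 1, 2 and 3 such eribulin rounds (ERI1, 1865 cells; ERI2, 1257; ERI3, 3076) and after 1, 2 and 3 rounds of paclitaxel (PAC1, 2928 cells; PAC2, 848; PAC3, 2792). Paclitaxel was given at 100 nM for 72 h in the first round, then 48 h of recovery, and at 250 nM in later rounds. For PAC2 no recovery is named after its final round, and for PAC1 and PAC3 its length is not given, so the paclitaxel conditions may differ in the time since drug as well as in rounds. All conditions come from 1 barcoded cell line, and each has 1 library, so no difference could be set against the spread between cultures and no test was made. No untreated cells were in run 2: between UNT and the run 2 conditions, run and drug cannot be told apart, and their levels are only given side by side.

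A dividing cell copies its DNA in S phase and then passes through G2 into mitosis. Many transcripts are made mainly in one of these windows: replication genes such as Mcm5 and Pcna around S phase, mitotic genes such as Top2a and Mki67 in G2 and mitosis. A cell cycle score is the mean level of such a gene list in a cell, less that of control genes of similar abundance, so a cell at the start of G1, or one that has left the cycle, tends to be low for both. Eribulin blocks the growth of microtubules and paclitaxel stabilises them; both disturb the mitotic spindle. The gene lists, the control genes and the set of cells that the deposited scores were computed on are not given in the sources used here, and the scale is arbitrary. No gene matrix was analysed, so the scores could not be checked against single genes, and no cycling or division rate is read from them.

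The lineages that carry the within-lineage results are identified by the sequences below, since cells that share a barcode descend from a common infected cell. Each barcode has a part of 14 bases, the linker tggt and a part of 30 bases, 48 bases in all. This pattern held for all 10000000 entries of the deposited barcode list. The first 6 are the described barcodes with the most whole cells, and the last 3 are barcodes named for the size of a change. Sequences are written as in that list, with the first part in capitals.
bc14-55-bc30-23349: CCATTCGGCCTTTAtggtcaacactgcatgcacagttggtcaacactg
bc14-76-bc30-49517: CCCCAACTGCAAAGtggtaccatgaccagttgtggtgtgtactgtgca
bc14-6-bc30-93034: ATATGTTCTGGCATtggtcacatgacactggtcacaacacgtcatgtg
bc14-95-bc30-33662: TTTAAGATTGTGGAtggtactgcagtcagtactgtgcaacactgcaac
bc14-4-bc30-67693: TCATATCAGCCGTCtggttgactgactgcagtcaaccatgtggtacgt
bc14-39-bc30-41529: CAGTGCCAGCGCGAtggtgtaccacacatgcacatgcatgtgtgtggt
bc14-55-bc30-99383: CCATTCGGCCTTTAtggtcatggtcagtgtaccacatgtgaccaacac
bc14-55-bc30-37135: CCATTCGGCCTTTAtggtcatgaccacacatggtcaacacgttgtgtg
bc14-92-bc30-83570: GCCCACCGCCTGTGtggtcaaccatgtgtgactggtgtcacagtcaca
The 3 barcodes whose names begin with bc14-55 share the first part and differ in the second, so they count as separate lineages.

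Over all depths, the typical cell differed little between conditions on either score. The median S score was -0.0909 in UNT and -0.145 in ERI4, against standard deviations over cells of 0.155 and 0.177. The run 2 medians after 1, 2 and 3 rounds were -0.106, -0.106 and -0.141 with eribulin, and -0.123, -0.148 and -0.15 with paclitaxel. The median S score after the third round was thus lower than after the first under both drugs, with differences of -0.0347 for eribulin and -0.0272 for paclitaxel, both small beside the spread over cells. Taking random pairs of cells, the ERI4 cell had the higher S score in 42.4% of pairs with a UNT cell, the ERI3 cell in 45.5% of pairs with an ERI1 cell and the PAC3 cell in 45.2% of pairs with a PAC1 cell, where 50% would mean that the 2 distributions are equal in rank.

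The median G2M score over all depths also differed by less than the spread over cells. It was -0.0645 in UNT and -0.112 in ERI4, with standard deviations of 0.235 and 0.314. In the eribulin library of run 2 it was -0.0436 after round 1, -0.0362 after round 2 and -0.0631 after round 3, and in the paclitaxel library -0.0708, -0.0484 and -0.0400. From the first to the third round the difference was -0.0195 with eribulin and 0.0308 with paclitaxel. The eribulin value did not keep its sign: it was 0.00688 with means in place of medians and 0.0171 in the range of depths common to ERI1 and ERI3.

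What differed more than the medians over all depths was the width of the G2M score. Its range from the 10th to the 90th percentile of cells was 0.623 in UNT and 0.841 in ERI4, with the low end 0.110 lower and the high end 0.108 higher in ERI4. In run 2 this range was 0.756, 0.799 and 0.749 after 1, 2 and 3 eribulin rounds and 0.706, 0.815 and 0.741 after 1, 2 and 3 paclitaxel rounds. All treated conditions were therefore wider than UNT, and within each drug of run 2 the second round was the widest. For the S score, the same range was 0.410 in UNT and 0.489 in ERI4, and between 0.404 and 0.481 in run 2.

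**Figure D1:**
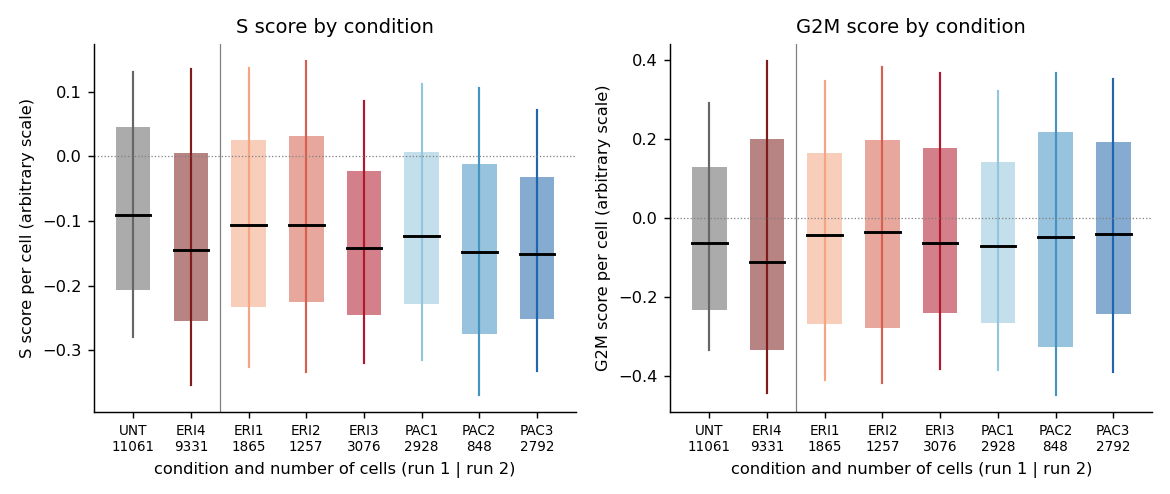
S score (left) and G2M score (right) per cell, on their arbitrary scales, for the 8 conditions; the black line is the median, the box the interquartile range and the thin line the 10th to 90th percentiles over cells. Over cells of all depths, the medians lie within -0.15 to -0.0909 for S and within -0.112 to -0.0362 for G2M. ERI4 has the longest G2M range, 0.841 against 0.623 in UNT.

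Taking the sign of both scores, cells fall into 4 classes, whose cut at 0 is a range on a continuous score and not a state of the cell. Both scores were at or below 0 in 29.0% of UNT cells (exact Clopper-Pearson 95% interval 28.2 to 29.9, covering counting error only, as for all intervals here) and in 39.5% of ERI4 cells (38.5 to 40.5). The share was 33.2%, 34.2% and 40.0% after 1, 2 and 3 rounds of eribulin, and 37.2%, 39.6% and 38.3% after 1, 2 and 3 rounds of paclitaxel. These shares depended on depth. In the common UMI window (12026 to 19690.5 UMIs per cell, described below with the low corner) the class held 31.4% of UNT and 61.3% of ERI4 cells, 27.8%, 31.4% and 23.8% after 1, 2 and 3 eribulin rounds, and 27.6%, 37.0% and 29.8% after 1, 2 and 3 paclitaxel rounds. At this depth ERI4 was thus above UNT, PAC2 (31.2 to 42.9) overlapped it, and ERI3 was below ERI1, where over all depths it was above it.
The class that was smaller in the treated conditions was that with only the S score above 0. It held 29.5% of UNT cells (28.7 to 30.4), 19.5% of ERI4 cells (18.7 to 20.4) and from 15.4% (PAC2, 13.1 to 18.1) to 22.3% (ERI1, 20.4 to 24.3) of cells in run 2. In the common window it held 37.0% of UNT, 13.2% of ERI4 and 15.7% (PAC3) to 24.8% (ERI1) of run 2 cells, with UNT again the highest.
The class with only the G2M score above 0 held between 34.8% (ERI4) and 41.4% (PAC3) of cells over all depths, but in the common window it ran from 22.5% in ERI4 and 28.0% in UNT to 50% in PAC3 and 52.4% in ERI3. Many cells lie near the cut: 18% of UNT cells had an S score within 0.05 of 0, and 12.8% of ERI4 cells did.

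Cells with both scores above 0 were few. They made up 3.77% of UNT cells (3.42 to 4.14) and 6.10% of ERI4 cells (5.62 to 6.60). In run 2 the second round held the most under both drugs: 6.97% in ERI1, 10.5% in ERI2 (8.86 to 12.3) and 3.25% in ERI3, and 4.78% in PAC1, 7.78% in PAC2 (6.07 to 9.80) and 3.83% in PAC3. A droplet with 2 cells can carry both programmes. In ERI2 the deposited barcode calls named a doublet or multiplet in 15.2% of these cells (9.51 to 22.4) and in 11.7% of cells with only the G2M score above 0 (8.85 to 15), and in PAC3 in 15% (8.80 to 23.1) against 6.49% (5.14 to 8.07). The 2 classes were closer in UNT (16.5% and 17.3%), ERI1 (10% and 9.71%) and ERI3 (3% and 2.73%). In ERI4 they had 3.51% and 2.52%, in PAC1 11.4% and 9.13% and in PAC2 16.7% and 11.4%, with overlapping intervals. The ERI2 intervals overlapped as well, and 14.2% of ERI2 cells with both scores at or below 0 had such a call. Such calls miss doublets of 1 lineage, and the part of doublets in this class was not tested.

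A larger difference between conditions lay in the cells low on both scores at once. To measure it, a low corner was set from the UNT cells, after the plots had been seen: both an S score under -0.280 and a G2M score under -0.334, the 10th percentiles of UNT. It held 3.01% of UNT cells (333 cells; 2.70 to 3.35) and 14% of ERI4 cells (1306 cells; 13.3 to 14.7). After 1, 2 and 3 eribulin rounds in run 2 the share was 9.92% (8.60 to 11.4), 12.3% (10.6 to 14.3) and 9.82% (8.79 to 10.9), and after 1, 2 and 3 paclitaxel rounds 7.62% (6.68 to 8.64), 17.1% (14.6 to 19.8) and 10.4% (9.24 to 11.5). Every treated condition thus lay above UNT, and in both drugs the second round was the highest of the run 2 rounds, though the intervals of ERI1, ERI2 and ERI3 overlap.

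Restricting all conditions to cells of 12026 to 19690.5 UMIs (counted RNA molecules), a window of depth that all 8 share and that keeps 11943 cells, left UNT at 2.66% and the treated conditions above it. In that window the low corner held 23.2% of ERI4 cells (21.8 to 24.7), 7.91% of ERI1, 10.8% of ERI2, 4.63% of ERI3 (3.42 to 6.10), 6.78% of PAC1, 17.4% of PAC2 and 7.70% of PAC3. ERI4 and ERI3 were the conditions that the window moved most, in opposite directions. It lies below the median depth of ERI4 (20877 UMIs) and above that of ERI3 (11267), so it keeps shallower ERI4 cells and deeper ERI3 cells. Depth itself went with the scores. Cells with only the G2M score above 0 had a median of 25263 UMIs in ERI4 and 13210 in ERI3. Cells with both scores at or below 0 had 16788 and 9560. The window therefore also selects on the scores, differently by condition. With the 25th percentiles of UNT as limits instead, the corner held 5.63% of UNT, 20.0% of ERI4 and 12.4% (PAC1) to 22.6% (PAC2) of cells in run 2.

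The 2 scores also went together differently over the cells of a condition. In UNT the scores ran against each other, with a Pearson correlation of -0.391 over 11061 cells: cells high for S genes were low for G2M genes and the reverse. In ERI4 the correlation was 0.0848 over 9331 cells. In run 2 it was -0.0167, 0.102 and -0.0322 after the 3 successive eribulin rounds, and -0.0904, 0.224 and 0.0184 after those of paclitaxel. These are descriptions over cells that share a library and differ in depth. In the common UMI window they were -0.349 in UNT, 0.235 in ERI4, -0.136 in ERI1, 0.0178 in ERI2, -0.314 in ERI3, -0.217 in PAC1, 0.188 in PAC2 and -0.0793 in PAC3, so that ERI3 lay nearest to UNT at this depth, while ERI4, ERI2 and PAC2 were positive both in the window and over all cells.

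**Figure D2:**
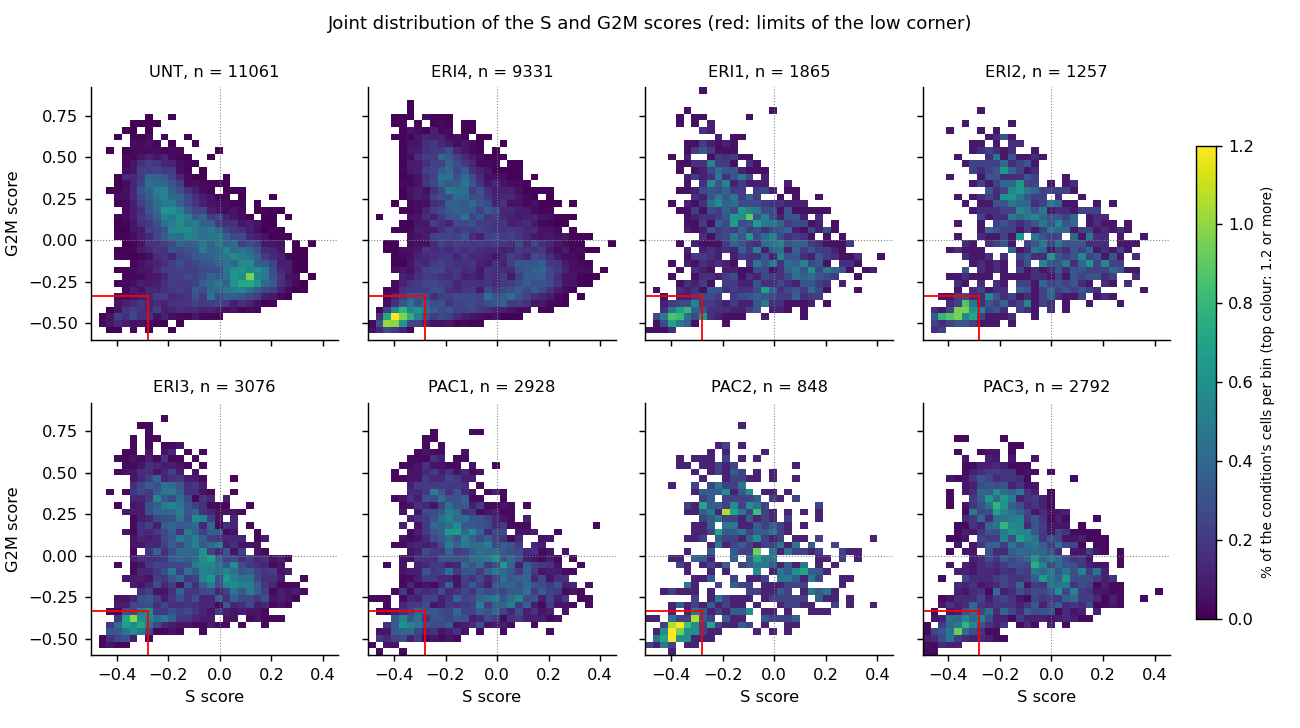
Joint distribution of the S score (horizontal) and G2M score (vertical) in each condition, as the percent of the condition's cells per bin; red lines mark the low corner. UNT forms 1 band from high G2M to high S with 3.01% of cells in the corner, and ERI4 and PAC2 show a separate dense patch in it, with 14% and 17.1%.

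The authors' clusters took up little of the variance of either score within a condition. The share of variance between clusters, adjusted for their number, was from 0.726% to 6.08% for S and from 0.869% to 3.49% for G2M over the 8 conditions. The main clusters of UNT had close medians: S was -0.0896 in cluster 1 (5451 cells), -0.0829 in cluster 5 (3328 cells) and -0.0818 in cluster 6 (1591 cells), and G2M was -0.0691, -0.0492 and -0.0325. The low corner held 1.78%, 1.68% and 1.01% of the cells of these clusters. The exception in UNT was cluster 0, a cluster that is 93.9% nuclei over the whole table. Its 339 UNT cells had medians of -0.251 for S and -0.384 for G2M, and 41.9% of them (36.6 to 47.3) lay in the corner, 42.6% of all UNT corner cells. Their median depth was 11059 UMIs, against 18420 in all UNT cells. Without cluster 0 the corner share of UNT was 1.78% (1.54 to 2.05) and its correlation -0.459, while those of ERI4 were 14% and 0.0845. In PAC1, 40 cells of cluster 0 had a corner share of 57.5% (40.9 to 73.0).

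In ERI4, PAC1 and PAC3 the clusters set out here differed more in corner share than clusters 1, 5 and 6 of UNT. Of ERI4 cells, the corner held 18.5% of cluster 3 (866 of 4686 cells; 17.4 to 19.6), 10.4% of cluster 2 (9.11 to 11.9), 9.91% of cluster 8 (8.45 to 11.5) and 6.24% of cluster 12 (4.55 to 8.31). Cluster 3 also had the lowest median S score of these, -0.189 against -0.0848 in cluster 2, -0.110 in cluster 8 and -0.0846 in cluster 12. In PAC3 the 2 main clusters stood apart in the same way. The corner held 16.6% of cluster 9 (14.4 to 19.0; 1070 cells) and 5.89% of cluster 2 (4.67 to 7.32; 1290 cells), and the scores correlated at 0.275 in cluster 9 and -0.232 in cluster 2. Median depth was close in both, 12674 and 13134 UMIs. In PAC1 these clusters held 11.9% (662 cells) and 4.07% (270 cells), again with cluster 9 above cluster 2.

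PAC2 divided into cluster 7, where the corner held 23.4% of 334 cells (18.9 to 28.3), and cluster 9, where it held 13.7% of 336 cells (10.2 to 17.8). ERI1 and ERI2 were mostly cluster 7 as well (1691 and 1103 cells), with corner shares of 9.34% and 12.1%. In PAC2 the median depth was 21086 UMIs in cluster 7 and 15229 in cluster 9. Cluster 13, in which the median mitochondrial share of UMIs was between 37.8% and 77.9% by condition, held no corner cell in any of the 8 conditions. Most of its cells have few UMIs (medians of 773 to 4353). Its S medians were between -0.126 and -0.0444. Its G2M medians were between -0.0425 and -0.0144 in run 2, 0.0342 in UNT and 0.292 in ERI4 (30 cells).

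Pseudotime, the position of a cell along a path fitted by the authors with untreated cells as its root, took up more of the variance of both scores than the clusters did in 7 of the 8 conditions, but not in 1 direction. The exception was the S score in PAC1, where clusters took up 3.95% and pseudotime 2.98%. Pseudotime was computed from the same expression values as the scores and is no independent measure of them. Cutting each condition into up to 10 bands of about equal cell number, the bands took up 10.8% of the variance of S and 25.2% of that of G2M in UNT, 27.0% and 19.4% in ERI4, and 4.64% and 35.2% in PAC3. In ERI1 they took up 3.16% and 6.86%. Rank correlations with pseudotime over the cells of a condition were between -0.311 (S in ERI4) and 0.138 (G2M in PAC2), so most of the dependence was not a steady trend. Many cells share 1 pseudotime value: 34.8% of PAC2 cells sat at 23.9 and 15.1% of ERI1 cells at 13.6.

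In UNT, the scores were most ordered where cells were nearest to the root. The first band, from 0 to 1.16 (1119 cells, 98.4% of them in cluster 5), had a median G2M score of 0.222, and 90.6% of its cells had only the G2M score above 0. The second band, up to 2.71, had a G2M median of -0.118 and an S median of 0.0157, and in the third, up to 4.89, G2M was -0.208. Within cluster 5, pseudotime bands took up 64.4% of the variance of G2M and 34.9% of that of S. The last band of UNT, from 10.8 to 29.3, held 51.1% of its corner cells, at a corner share of 15.9% (13.8 to 18.3).

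In ERI4 the scores turned at the far end of the path. Between pseudotime 28.5 and 29.5 the median G2M score was 0.152 (984 cells) and 52.5% of cells had only the G2M score above 0. Over the next 3 bands G2M was 0.0134, -0.227 and -0.450, and S went from -0.118 to -0.217, -0.255 and -0.357. The last band, from 31.3 to 31.5 (846 cells, 99.5% in cluster 3), had both scores at or below 0 in 93.1% of cells and 66.2% of its cells in the low corner (62.9 to 69.4). It held 42.9% of the corner cells of ERI4. Of its 820 barcoded cells, 99.3% carried bc14-55-bc30-23349, the largest lineage, which also made up 95.9% or more of the barcoded cells of each of the 3 bands before. Its median depth was 16344 UMIs against 20877 in all ERI4 cells.

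In run 2, extremes of the scores also sat in narrow stretches. In PAC3 the band from 22.5 to 22.8 (261 cells) had a median G2M score of 0.317 with 95.8% of cells positive for G2M alone, while the band at 21.8 to 22.0 (355 cells) had a median of -0.283 and a corner share of 29.9% (25.1 to 34.9). In PAC2 the band from 13.4 to 13.7 (99 cells, 91.9% in cluster 7) had medians of -0.328 for S and -0.417 for G2M and a corner share of 54.5% (44.2 to 64.6). In ERI1 and ERI2, cells in and beside the same stretch stood out too. The ERI1 band from 13.4 to 13.6 (379 cells) had a corner share of 23.7% (19.5 to 28.4), and the ERI2 band at 13.6 to 13.7 (114 cells) one of 34.2% (25.6 to 43.7), with a G2M median of -0.327. In ERI3 the highest G2M median, 0.265, was in the band at 22.5 to 22.6 (218 cells), directly after a band with a corner share of 16.8%.

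**Figure D3:**
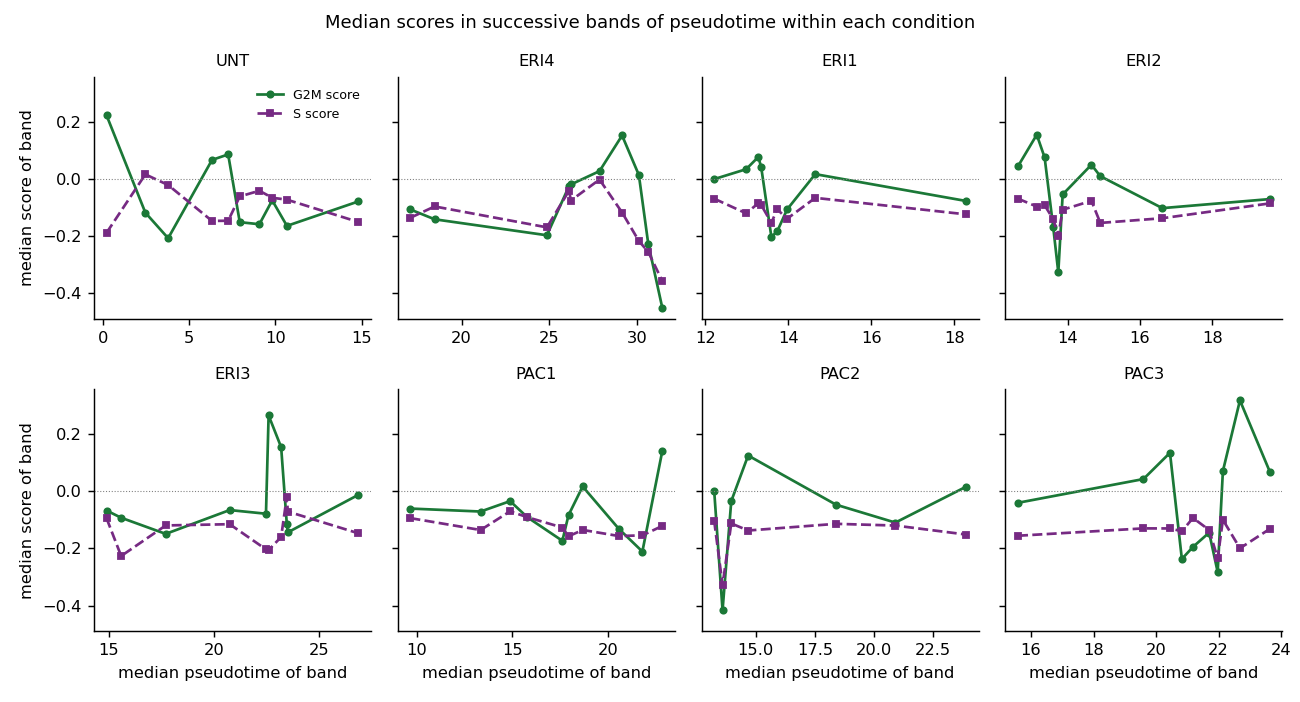
Median G2M score (green circles) and S score (purple squares) of up to 10 bands of cells ordered by pseudotime, at the median pseudotime of each band, for the 8 conditions; the last point of PAC2 has 336 cells, and a band of 2 cells beyond it is not drawn. In ERI4 both scores reach their lowest band medians, -0.357 and -0.450, at the end of the path, and in PAC2 they do so at 13.6 (-0.328 and -0.417).

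Both scores depended on depth. The rank correlation of the G2M score with UMIs per cell was positive in all 8 conditions, from 0.0947 in PAC2 to 0.365 in ERI3, and that of the S score ran from -0.0581 in ERI1 to 0.253 in ERI4. Each condition was cut into 4 groups of equal size by its own UMIs per cell. In the shallowest group both scores were at or below 0 in 47.7% of UNT, 66.7% of ERI4 and 65.0% of ERI3 cells, and in the deepest group in 15.1%, 19.7% and 24.7%. The common window compares cells of like depth but selects on a trait that goes with the scores. The part of depth in the differences between conditions was not tested.

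The low corner followed depth in some conditions and not in others. From the shallowest to the deepest group it held 6.36%, 2.03%, 2.13% and 1.52% of UNT cells, 27.8%, 14.4%, 6.43% and 7.33% of ERI4 cells and 22.4%, 7.15%, 4.55% and 5.20% of ERI3 cells. In PAC2 it held 16%, 14.6%, 21.7% and 16%, and in ERI1 12.0%, 7.30%, 8.37% and 12.0%. Median depth of the corner cells was 13217 UMIs in UNT and 15785 in ERI4, below that of their conditions, but 17942 in ERI1 and 18030 in PAC2, above it. In all 4 groups the share of ERI4 was above that of UNT, and its interval did not overlap that of UNT.

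The correlation of the scores also differed with depth. In UNT it was -0.192 in the shallowest group and -0.386, -0.490 and -0.585 in the next, so the opposition of S and G2M was plainest in the deepest cells. In ERI4 it was 0.339, 0.136, -0.269 and -0.0686, and in ERI3 0.251, -0.0598, -0.346 and -0.170. PAC2 was positive throughout, from 0.15 to 0.288.

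**Figure D4:**
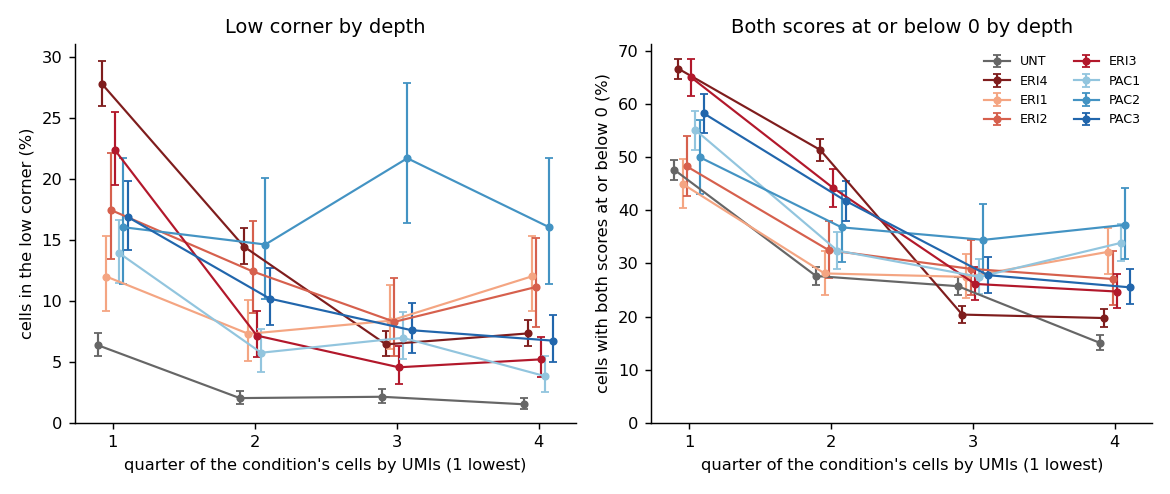
Percent of cells in the low corner (left) and with both scores at or below 0 (right) in the 4 UMI groups of each condition, from shallowest (1) to deepest (4); bars are exact 95% intervals for counting error. ERI4 goes from 27.8% to 7.33% in the corner and stays above UNT (6.36% to 1.52%), while PAC2 lies between 14.6% and 21.7% at all depths.

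Lineage took up little of the variance of either score. Over all barcodes called in at least 20 cells of a condition, the adjusted share of variance between barcodes was at most 4.91% (S in ERI4) and was below 0 for G2M in PAC1 and PAC2. Among the 26 described barcodes, the medians of 1 condition ranged over 0.0934 (PAC2) to 0.160 (ERI1) for S, less than the interquartile range within a typical barcode, which was 0.224 to 0.267. For G2M they ranged over 0.102 (ERI3) to 0.343 (ERI2), against 0.376 to 0.514 within a typical barcode. A called barcode can be 1 of several detected in the cell. Only 638 UNT cells had exactly 1, with a corner share of 5.17%, against 3.01% of all UNT cells.

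The largest lineage was low on S. In ERI4, bc14-55-bc30-23349 (4597 cells, 96.4% in cluster 3) had medians of -0.189 for S and -0.125 for G2M, and the 2128 cells with other called barcodes -0.0985 and -0.113. The low corner held 18.8% of the lineage (17.7 to 19.9) and 10.3% of the others (9.03 to 11.7). In the common UMI window these shares were 28.1% of 1878 cells (26.1 to 30.2) and 16.7% of 646 cells (13.9 to 19.8), where the lineage was again above the others together; median depth in the window was 15866 and 16799.5 UMIs. In ERI3 its 305 cells had a corner share of 12.1% (8.69 to 16.3), close to the 10.4% of the others (9.08 to 11.9), and in the common window 6.25% of 112 cells (2.55 to 12.4) against 4.75% of 631 (3.23 to 6.72). Lineage and cluster cannot be told apart in ERI4, since nearly all its ERI4 cells are in cluster 3.

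Over all depths the other large lineages of ERI4 lay higher on S. The median S score was -0.0691 in bc14-76-bc30-49517 (432 cells), -0.109 in bc14-6-bc30-93034 (667 cells), -0.0993 in bc14-95-bc30-33662 (719 cells) and -0.0984 in bc14-39-bc30-41529 (113 cells). Their G2M medians were -0.0397, -0.161, -0.121 and 0.0986. The last was the highest G2M median among the 6 described barcodes of ERI4. These lineages were deeper than the largest one, with median depths of 26812.5, 21087, 21735 and 27031 UMIs against 20007. In the common window the order changed: bc14-76-bc30-49517 (73 cells) had medians of -0.214 for S and -0.349 for G2M and a corner share of 32.9% (22.3 to 44.9), beside -0.234, -0.300 and 28.1% in the largest lineage. There bc14-6-bc30-93034 (252 cells) had -0.180, -0.328 and 16.3%, and bc14-95-bc30-33662 (242 cells) -0.175, -0.214 and 9.92%. In ERI3 the same 4 lineages had S medians of -0.145, -0.144, -0.204 and -0.0998, and corner shares of 7.27%, 12.5%, 21.7% and 9.62%.

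No barcode had 20 cells in both UNT and ERI4, so the run 1 comparison could not be made within a lineage. In run 2 it could. After the second paclitaxel round the S median was lower than after the first in 6 of 6 lineages, with differences of -0.114 to -0.0136, and the G2M median in 2 of 6. In random pairs the PAC2 cell was the higher in S in 40.4% (bc14-6-bc30-93034) to 50.7% (bc14-29-bc30-33048) over these lineages. The last had the difference of -0.114, so by rank it was not lower. After the third round, S was lower than after the first in 5 of 7 lineages and G2M in 3 of 7. With eribulin, S was lower in 3 of 6 lineages from the first to the second round, in 3 of 3 from the second to the third and in 3 of 3 from the first to the third. The G2M median was lower in 1 of 6, 2 of 3 and 2 of 3. These counts are small, conditions of a drug share a library, and with at least 50 cells in both conditions only 1 lineage was left between PAC1 and PAC2. By rank, G2M was not lower in ERI3 than in ERI1 in any of the 3 lineages. The ERI3 cell was the higher in 50.4% to 55.0% of their random pairs.

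The lineage bc14-76-bc30-49517, present with 20 cells or more in 7 conditions, had small changes between rounds over all depths. Its S medians were -0.139, -0.114 and -0.145 after 1, 2 and 3 eribulin rounds (57, 242 and 839 cells), and -0.0981, -0.129 and -0.135 after 1, 2 and 3 paclitaxel rounds (164, 125 and 1118 cells). Its G2M medians were 0.00254, -0.00104 and -0.0207, and -0.0769, -0.0315 and -0.0403. Its interquartile ranges in ERI4 reached from -0.184 to 0.0825 for S and from -0.301 to 0.188 for G2M, so all these medians lie well inside the spread of 1 condition. They also lie inside its ranges in ERI3, where that of S was narrowest (-0.231 to -0.0408 for S, -0.192 to 0.230 for G2M). Its S median in ERI4 was -0.0691 over all depths and -0.214 in the common window. In the common window its S medians were -0.0572, -0.0647 and -0.127 with eribulin and -0.0785, -0.110 and -0.168 with paclitaxel, and its G2M medians 0.0664, -0.125 and 0.110, and -0.0424, -0.0794 and 0.0370. At this depth, which leaves 20 of its ERI1 cells, S was lower at each later round under both drugs.

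The lineage bc14-6-bc30-93034 showed larger steps over all depths. With eribulin its S median was -0.0624 after round 1 (104 cells) and -0.144 after round 3 (554 cells), the largest downward difference of a lineage between these rounds, and the corner share went from 5.77% (2.15 to 12.1) to 12.5% (9.82 to 15.5). In the common window these S medians were -0.100 (35 cells) and -0.146 (151 cells). With paclitaxel its S median was -0.120, -0.177 and -0.152 (259, 39 and 165 cells), and its corner share 3.09% (1.34 to 6.0), 25.6% (13 to 42.1) and 8.48% (4.72 to 13.8). The lineage bc14-4-bc30-67693, found mostly in paclitaxel conditions, had the same order in corner share. Its corner share was 7.69% (2.14 to 18.5) of 52 cells, 22.0% (10.6 to 37.6) of 41 and 15.6% (12.5 to 19.1) of 487, and its S median -0.117, -0.171 and -0.172. In the common UMI window the corner held 6.62% of 151 ERI3 cells and 0 of 74 PAC1 cells (exact upper limit 4.86%) of bc14-6-bc30-93034, and 10.3% of 203 PAC3 cells of bc14-4-bc30-67693; their PAC2 cells in it were under 20. Over all depths both lineages were thus highest in the corner after the second paclitaxel round, as the whole population was, though with wide intervals.

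**Figure D5:**
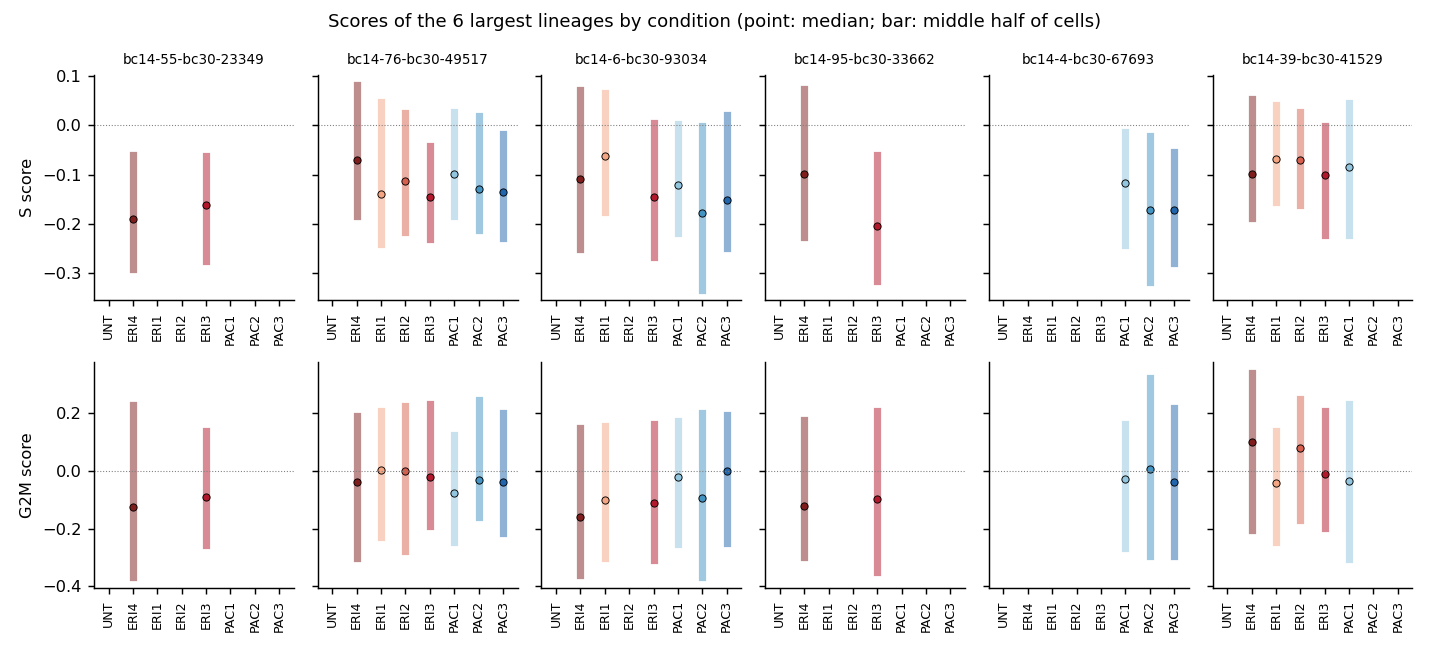
Median (point) and interquartile range over cells (bar) of the S score (top) and G2M score (bottom) in the 6 described lineages with the most cells, for each condition in which the lineage has at least 20 cells. Bars overlap between all conditions of a lineage; bc14-55-bc30-23349 is present in ERI4 (S median -0.189) and ERI3 (-0.162) only.

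The largest differences between eribulin rounds were found in lineages of very different size. From ERI1 to ERI2, bc14-55-bc30-99383 (60 and 31 cells) differed most in the medians of both scores, by -0.102 in S and 0.155 in G2M. A separate lineage with the same first barcode part, bc14-55-bc30-37135 (26 and 80 cells), had the largest upward difference in S, 0.0406, and a G2M difference of 0.0633. By rank, G2M differed more in bc14-22-bc30-18173. Its ERI2 cell was the higher in 62.7% of random pairs, against 55.0% in bc14-55-bc30-99383. Of the 6 lineages, only bc14-76-bc30-49517 had a lower G2M median, by a difference of -0.00358. From ERI2 to ERI3 the largest downward differences were -0.0312 in S, in bc14-76-bc30-49517, and -0.0876 in G2M, in bc14-39-bc30-41529, while bc14-89-bc30-6288 differed by -0.0185 in S and 0.0652 in G2M. From ERI1 to ERI3 the G2M difference was -0.0233 in bc14-76-bc30-49517 and 0.0316 in bc14-39-bc30-41529. None of these differences reached the interquartile range of a typical lineage.

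With paclitaxel the largest difference was that of bc14-92-bc30-83570 (36 cells in PAC1, 24 in PAC3). Its S median was -0.0825 in PAC1 and -0.202 in PAC3, and its G2M median -0.187 and 0.0988. The PAC3 cell was higher in G2M in 73.7% of random pairs, and higher in S in 31.9%. In the opposite direction, bc14-65-bc30-62538 (55 and 36 cells) differed by -0.103 in G2M and 0.0194 in S from PAC1 to PAC3. From PAC1 to PAC2 the S difference was largest in bc14-29-bc30-33048 (31 and 21 cells), at -0.114, although its PAC2 cell was the higher in 50.7% of random pairs. In G2M the differences ran from -0.0745 in bc14-6-bc30-93034 to 0.180 in bc14-33-bc30-33994 (33 and 21 cells). From PAC2 to PAC3, S differed by -0.0608 in bc14-33-bc30-33994 and 0.117 in bc14-29-bc30-33048, and G2M by -0.0462 in bc14-4-bc30-67693 and 0.0929 in bc14-6-bc30-93034. From round to round the medians of bc14-29-bc30-33048 changed direction in both scores, while bc14-33-bc30-33994 was lower in S and higher in G2M at both steps. Random pairs did not follow all of the signs in bc14-29-bc30-33048. Its later cell was the higher in 50.7% and then 55.0% of pairs for S, and in 51.9% and then 47.2% for G2M.

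Between the drugs, 9 lineages could be compared after the first round. The S median was lower with eribulin in 3 of them and the G2M median in 5. The differences (ERI1 less PAC1) in S ran from -0.0571 in bc14-18-bc30-28871 (40 and 54 cells) to 0.0924 in bc14-74-bc30-34057 (33 and 28 cells), and in G2M from -0.136 in bc14-69-bc30-89668 (56 and 23 cells) to 0.161 in bc14-55-bc30-99383 (60 and 25 cells). After the second round only bc14-76-bc30-49517 could be compared, with differences (ERI2 less PAC2) of 0.0156 in S and 0.0305 in G2M. By rank its G2M score was not higher in ERI2, whose cell was the higher in 48.0% of random pairs. After the third round, the G2M difference was -0.110 in bc14-6-bc30-93034 (554 and 165 cells) and 0.0195 in bc14-76-bc30-49517 (839 and 1118 cells). The lineages therefore had no common direction between the drugs.

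For 10 of the described lineages, levels in UNT can be set beside those of the same lineage in run 2. In UNT the correlation of S and G2M was negative in all 10, from -0.683 to -0.195, with a median of -0.514, and the median corner share was 1.34%. Setting each beside its run 2 conditions gave 14 pairs, which share the UNT cells where a lineage had more than 1 such condition. The run 2 correlation was the higher in 13 of the 14 pairs and negative in 8, and the corner share was the higher in 13 and equal in 1. Every pair crosses runs, so run and drug cannot be told apart. The pairs were not set at a common depth, although the UNT correlation differed with depth (-0.192 to -0.585). In bc14-69-bc30-89668 the correlation was -0.683 over 87 UNT cells, 0.347 over 56 ERI1 cells and 0.108 over 23 PAC1 cells, and the corner share was 2.30%, 19.6% and 13%. In bc14-22-bc30-18173 it was -0.513 over 153 UNT cells, 0.267 over 36 ERI1 cells and 0.00905 over 124 ERI2 cells, with corner shares of 1.31%, 11.1% and 8.06%. The lineage bc14-92-bc30-83570 was among those negative in both runs, at -0.502 over 80 UNT cells, -0.0991 over 36 PAC1 cells and -0.244 over 24 PAC3 cells, with corner shares of 2.50%, 5.56% and 4.17%. The pair with a lower correlation in run 2 was that of bc14-16-bc30-28768, at -0.313 over 21 UNT cells and -0.60 over 31 ERI1 cells, with no cell in the corner in either. The lineages named here were chosen after their values were seen.

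The libraries differ in other respects that stand beside these values. Median depth was 18420 UMIs in UNT and 20877 in ERI4, and from 11267 (ERI3) to 17297 (ERI1) in run 2. The median mitochondrial share was 4.09% in UNT, 4.70% in ERI4 and 2.60% to 3.81% in run 2, and it was higher in corner cells than in their condition as a whole in all 8 conditions, from 5.03% in UNT and 5.53% in ERI4 to 2.90% in PAC2 (2.88% in all PAC2 cells). The part of mitochondrial share in the corner was not tested. Any 2 of the 4 libraries shared between 12 and 26 cell barcodes of 16 bases.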

How the data were processed

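Single-cell RNA libraries (10x 3' v3) of PB3 cells were analysed from the authors' deposited table of cells. Per the submitters' processing notes and the series' design text, reads were counted on mm10 with Cell Ranger 3.1.0 (run 1) and 4.0.0 (run 2), and cells were filtered (at least 200 genes, at most 50% mitochondrial or ribosomal UMIs) and clustered with Seurat 3.1.4; pseudotime came from Monocle3. The deposited counts are raw UMIs, genes and barcodes per cell. The deposited percent values are mitochondrial shares of UMIs. The deposited score columns hold the S score, the G2M score and pseudotime. In all, 179 whole cells outside that filter, each over the mitochondrial limit, were kept, and no doublet caller was run; no class marks droplets with more than 1 hashtag.

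Libraries were matched to the labels by run and sample name, and conditions, clusters and latest barcode calls were used as deposited. Medians, means, shares with exact Clopper-Pearson 95% intervals and shares of variance were computed in Python 3.11.15 with pandas 2.3.3 and scipy 1.17.1. Only the shares of variance, the shares of random pairs and the counting intervals of medians were tested on simulated data. Pseudotime was rounded to 2 decimals before banding. Without replicates, no p-value was computed. In place of thinning, which needs a gene matrix, UMI windows (highest 10th to lowest 90th percentile) were used. The members, limits and lists were chosen with earlier results of these data known. Named barcodes are the 6 with the most whole cells and, per score and comparison within a run, those with the largest rise and fall; others named were chosen after their values were seen. Alternatives covered the mean, depth, clusters 13 and 0, the filter, barcode number and call, and the limits. The low corner, and the alternatives to it, to the shares, to the correlations and to the variance shares, were chosen after seeing the data.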

Additional observations from a re-analysis of the deposited data

Results flagged for a closer look

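Of 20 changes between rounds that could be computed under both drugs in run 2, 5 went in opposite directions with eribulin and paclitaxel, each by at least 0.01 in a median or 1 percentage point in a share. With 1 library per condition none of these differences was tested. From the first to the third round the median G2M score changed by -0.0195 with eribulin and by 0.0308 with paclitaxel. Within bc14-6-bc30-93034 the same change was -0.0113 and 0.0184, and within bc14-76-bc30-49517 it was -0.0233 and 0.0366. By rank these eribulin changes were not falls. Against ERI1, the ERI3 cell was the higher in G2M in 50.7% of random pairs over all cells. Within the 2 lineages, in the order named, it was the higher in 50.4% and 51.5%. With paclitaxel the PAC3 cell was the higher in 52.9% of pairs over all cells and in 50.0% and 54.6% within these lineages. From the first to the second round the median S score of bc14-76-bc30-49517 changed by 0.0257 with eribulin and by -0.0311 with paclitaxel. From the second to the third round the share of cells with both scores at or below 0 changed by 5.81 percentage points with eribulin and by -1.30 with paclitaxel. All 4 changes in medians are under the spread over cells, and most of these opposite directions were not seen at a common depth. In the range of depths common to ERI1 and ERI3 the eribulin change of the G2M median over all cells was 0.0171. In the UMI window common to all 8 conditions, the share with both scores at or below 0 was lower after the third round than after the second under both drugs (31.4% and 23.8% with eribulin, 37.0% and 29.8% with paclitaxel). There the G2M median of bc14-76-bc30-49517 was higher after the third round than after the first under both (0.0664 and 0.110, -0.0424 and 0.0370), and that of bc14-6-bc30-93034 went from 0.0707 to 0.0688 and from 0.0590 to 0.0629. The S median of bc14-76-bc30-49517 was lower after the second round than after the first under both (-0.0572 and -0.0647, -0.0785 and -0.110).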

How the results depend on the processing

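With 1 library per condition no value was a test, so no call could be lost. The main values were differences of medians for the main comparisons and counts of lineages. Of their recomputed values, 86 stayed within the counting interval of the reported value (counts of lineages: within 1.5 times) and 24 did not. For a difference of 2 medians this interval joins the outer limits of both, so it is wide. Of the other recomputed values, 184 stayed and 76 did not (variance shares: within 1.5 times). These cover the low corner, the class shares, the correlations, the pseudotime variance shares and the remaining differences. The cause was not tested. For ERI4 against UNT, the S difference of -0.0537 was -0.0430 with means, -0.0697 in the UMI window common to both conditions and -0.103 in cells with exactly 1 detected barcode, and the G2M difference of -0.0472 was -0.0142 with means and -0.0184 within clusters, where the 5 shared clusters hold 2.14% of ERI4 cells. In such a window the G2M difference of ERI3 and ERI1 was 0.0171 (-0.0195 over all cells) and that of ERI3 and PAC3 0.00558 (-0.0231 over all cells), and within clusters that of ERI1 and PAC1 was 0.0624 (0.0273 over all cells). Leaving out cluster 13, or cells outside the stated filter, moved none of the 20 differences between conditions. Among lineages with at least 50 cells in both conditions, S was lower in 1 of 2 from ERI1 to ERI2, 1 of 1 from PAC1 to PAC2 and 3 of 3 from PAC1 to PAC3, and G2M in 0 of 1 from PAC1 to PAC2, 1 of 3 from PAC1 to PAC3 and 1 of 3 in ERI1 against PAC1. With the first revision of the barcode call, G2M was lower in 2 of 5 from ERI1 to ERI2 and 1 of 4 from PAC1 to PAC2. With exactly 1 detected barcode it was lower in 1 of 3 from ERI1 to ERI3 and 1 of 4 from PAC1 to PAC2, and with means in 0 of 3 and 1 of 6. In the common UMI window G2M was lower in 3 of 6 from ERI1 to ERI2, 0 of 3 from ERI1 to ERI3 and 2 of 4 in ERI1 against PAC1, and S in 1 of 4 in the last. No paired analysis was possible because each condition has 1 library. Few cells limit the lineage medians, and median depth differed between conditions from 11267 to 20877 UMIs.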
